A study of Bos taurus with 30 samples.

Results

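The miR-99, miR-100 and miR-125 miRNAs of the calf testis were taken as the 6 mature miRNAs that the table lists as bta-miR-99a-5p, bta-miR-99a-3p, bta-miR-99b, bta-miR-100, bta-miR-125a and bta-miR-125b (named below without the species prefix), out of 1030 bovine miRNAs in the deposited table. All 6 were above 0 in all 30 libraries, and all 6 were among the 387 miRNAs tested for a diet difference. Each library came from the testis of 1 Holstein-Friesian bull calf at 12 weeks of age, and the question was whether the feeding level of early life changes testis miRNAs. The diets began at 2 weeks of age. The 15 High calves drank 10 L of milk daily, made from 1.5 kg of replacer, and could eat concentrate at will, with growth of 1.0 kg daily as the aim. The 15 Moderate calves drank 4 L, made from 0.5 kg of replacer, and were offered 0.5 kg of concentrate, with growth of 0.5 kg daily as the aim. RNA came from testis tissue with no sorting of cells named in the labels, so the cell types of the organ are mixed in each value.

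miRNAs are short RNAs that guide Argonaute proteins to mRNAs and lower their translation and stability, and the bases near their 5′ end, the seed, do most of the target recognition. miR-99a-5p, miR-99b and miR-100 share 1 seed and are known for targets in the mTOR and IGF1 receptor pathway, which links growth to nutrient supply. miR-125a and miR-125b share another seed and are the vertebrate relatives of lin-4, the first miRNA found in worms. miR-99a-3p comes from the opposite arm of the miR-99a hairpin and has neither seed. In mammals these genes lie in clusters, each with a miR-99 or miR-100 gene, a let-7 gene and a miR-125 gene. The bovine RefSeq gene table (ARS-UCD2.0) showed the same 3 groups of neighbours with no other miRNA gene between them: MIR99A with MIRLET7C and MIR125B-2, MIR100 with MIRLET7A-2 and MIR125B-1, and MIR99B with MIRLET7E and MIR125A. The gene model of SPACA6, a sperm acrosome gene needed for fusion with the egg, overlaps MIR125A in that table. miR-125b can thus come from 2 genes in 2 clusters, and its reads do not say which. The mature sequences were not used here.

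Depth ranged from 6.0003 to 19.98 megareads per library, with 24 libraries at up to 10.3 and 6 (4 High, 2 Moderate) at 16.7 or more. Values are given in the deposited unit, counts per megaread after scaling each library by edgeR's trimmed mean of M values (TMM-scaled CPM). Diet is the diet characteristic of the labels. For 18 of the 30 libraries the sample title names the other diet. The sample code, which ends in H or L, goes with the characteristic in all 30. Each diet result rests on the grouping by that characteristic. One library, Moderate replicate 5, stood apart from the rest: 84.8% of its reads were miR-10b, a share that lay between 37.0% and 49.0% elsewhere. Results are therefore given with and without it. Of the 4 striated muscle miRNAs listed, miR-1 and miR-206 were at 0 in all libraries. The other 2, miR-133a (2.85 to 18.6, median 9.89) and miR-499 (0.476 to 8.39, median 5.68), were above 0 in all. miR-34c, a miRNA of meiotic and later germ cells, lay between 9.51 (Moderate replicate 5) and 238.0 (median 89.7).

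Together the 6 miRNAs took 0.961% ± 0.151 of the reads of a library (SD, n = 30). miR-125a was the most abundant at 3037 ± 350 (SD, n = 30), followed by miR-99b at 2617 ± 2106, miR-125b at 2172 ± 240, miR-100 at 1260 ± 537, miR-99a-5p at 594 ± 204 and miR-99a-3p at 67.5 ± 11.7. A read stands for 1 whole mature miRNA of about the same length, so these levels were compared without a length correction, though the efficiency of library preparation can differ between miRNAs. The SD of miR-99b was large because of 1 library: without Moderate replicate 5 its level was 2239 ± 387, next to 2188 ± 227 for miR-125b.

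The order of levels was nearly the same in every calf. miR-125a was above miR-99b in 29 of 30 libraries, miR-125b was above miR-100 in 29, and miR-100 was above miR-99a-5p and miR-99a-5p above miR-99a-3p in all 30. The exception for miR-99b and for miR-100 was Moderate replicate 5. miR-99b and miR-125b did not differ beyond their spread: miR-99b was the higher of the pair in 14 of 30 libraries, with a mean log2 difference of 0.12 ± 0.59 (SD), and of 0.02 ± 0.22 in the other 29. The mean log2 difference of miR-125a over miR-99b, 0.36 ± 0.42, was also within its spread in 30 libraries, and was 0.43 ± 0.18 without Moderate replicate 5. The TMM scaling multiplies all miRNAs of a library by 1 factor, so library totals in its place give the same order by construction.

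Among the miRNAs with the miR-99 seed, miR-99b gave 56.9% ± 4.67 of the summed level, miR-100 29.1% ± 4.30 and miR-99a-5p 14.1% ± 1.98 (SD, n = 30). By diet, the miR-100 share was 31.2% ± 3.76 under High and 26.9% ± 3.75 under Moderate (27.4% ± 3.27 without Moderate replicate 5, n = 14), and the miR-99b share 54.9% ± 3.44 and 58.9% ± 5.003 (57.9% ± 3.61 without it). Of the miR-125 seed, miR-125a gave 57.04% ± 3.02 under High and 59.4% ± 4.22 under Moderate. miR-99b and miR-125a, whose genes lie in 1 cluster, thus gave most of the level of their seeds.

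**Figure D1:**
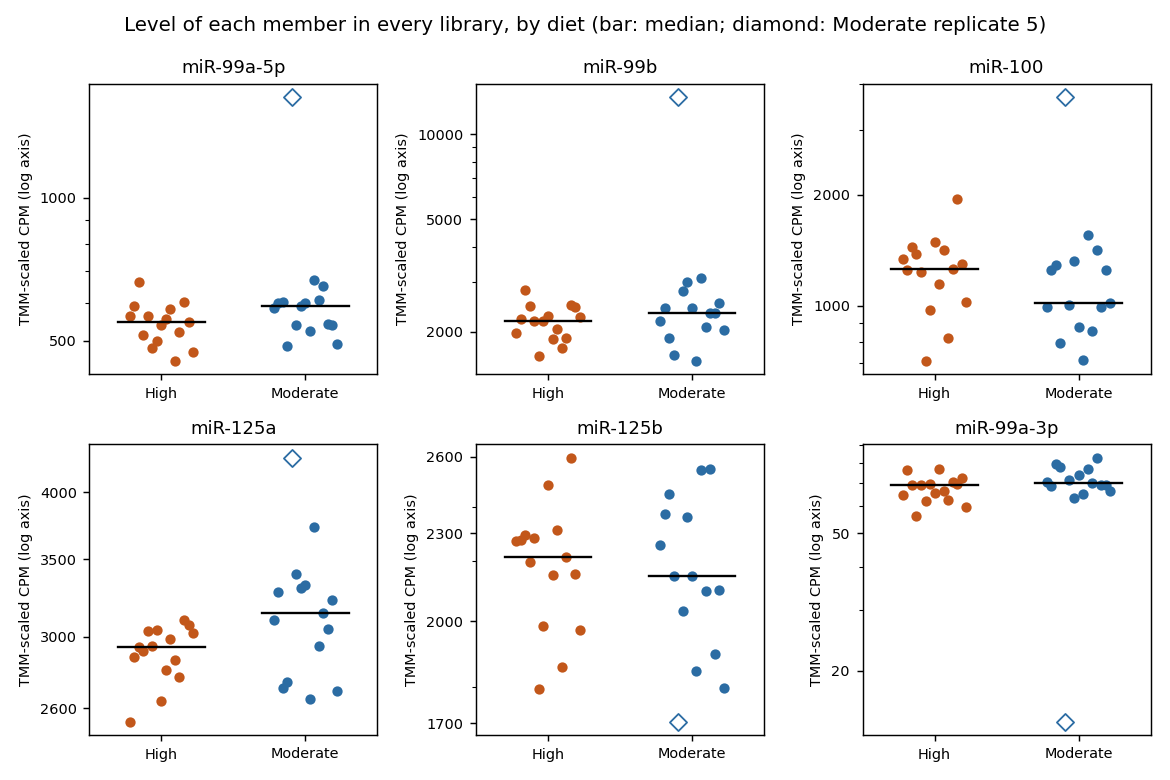
Deposited level (TMM-scaled CPM, log axis) of each member in the 15 High and 15 Moderate libraries; each point is a library, the bar is the median, and the diamond is Moderate replicate 5. The diets overlap in every panel, the highest High value of miR-125a (3098) lies under the Moderate median (3146), and the diamond lies outside the other 29 points in each of the 6 panels.

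No member passed an adjusted p of 0.05 for diet in limma with Benjamini-Hochberg adjustment over 387 miRNAs, in which 19 miRNAs (4.91%) were called. The largest shift in level relative to its error was that of miR-125a, which was slightly lower under High without passing. Its level ranged from 2531 to 3098 with a median of 2936 under High, and from 2650 to 4288 with a median of 3146 under Moderate, where the next highest library was at 3733. The Moderate median was above every one of the 15 High values, with or without Moderate replicate 5, although the ranges overlapped, and 4.13% of the tested miRNAs had all 15 High libraries on one side of that median. The log2 fold change of miR-125a (High minus Moderate, on the log2(value + 0.5) scale) was -0.12 (SE 0.06, 95% confidence interval -0.23 to -0.0038). The unadjusted p was 0.0433, a level reached by 82 of the 387 (21.2%), and the adjusted p was 0.211. Without Moderate replicate 5 the value was -0.09 (unadjusted p = 0.0643, adjusted p = 0.193). In the 24 libraries of lower depth, which include Moderate replicate 5, the value was -0.14 (limma adjusted p = 0.265). In the 6 deeper ones it was -0.0014 (adjusted p = 0.997).

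miR-125b, its paralog, had nearly the same level in both diets. It ranged from 1794 to 2596 (median 2216) under High and from 1704 to 2548 (median 2148) under Moderate. The log2 fold change was 0.03 with a 95% confidence interval of -0.10 to 0.15 (limma adjusted p = 0.829). The deposited miR-125b values equalled whole reads in 15 libraries and ended in 0.5 read in the other 15, within a tolerance of 0.02 read, so some of its reads had been divided before deposit. The other 5 members held whole reads in all 30 libraries.

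The 3 miRNAs with the miR-99 seed did not share a sign, and none passed. miR-100 ranged from 709 to 1956 (median 1258) under High and from 715 to 3690 (median 1020) under Moderate, or to 1560 without Moderate replicate 5. Its highest level under High was in replicate 13 and its lowest in replicate 6, and 12 of 15 High libraries lay above the Moderate median. The log2 fold change was 0.07 (SE 0.16, 95% confidence interval -0.27 to 0.40, limma adjusted p = 0.843) in the 30 libraries and 0.19 (SE 0.12, -0.06 to 0.44, adjusted p = 0.341) without Moderate replicate 5.

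miR-99a-5p ranged from 453 to 665 (median 548) under High and from 487 to 1634 (median 592) under Moderate, with 12 of 15 High libraries below the Moderate median. The 14 other Moderate libraries ended at 670, so the ranges were close to each other. Its log2 fold change was -0.18 (SE 0.11, limma adjusted p = 0.359), and -0.08 (SE 0.05, adjusted p = 0.353) without Moderate replicate 5. miR-99b ranged from 1643 to 2812 (median 2182) under High and from 1577 to 13582 (median 2339) under Moderate, or to 3101 in the other 14 libraries. Its log2 fold change of -0.25 (SE 0.18, adjusted p = 0.445) became -0.08 (SE 0.09, adjusted p = 0.607) without Moderate replicate 5. The values of both miRNAs thus moved by more than 1.5 times with 1 calf.

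The passenger arm miR-99a-3p ranged from 56.04 to 76.5 (median 69.03) under High. Under Moderate it ranged from 14.3 to 82.8 (median 69.9), or from 63.1 without Moderate replicate 5. Its log2 fold change was 0.06 (95% confidence interval -0.25 to 0.37, limma adjusted p = 0.849) and turned to -0.09 (-0.19 to 0.0065, adjusted p = 0.195) in 29 libraries. Over the 6 members the median log2 fold change was -0.05, against 0.03 over all 387, and 3 of 6 were negative. Without Moderate replicate 5 it was -0.08 against 0.0032, with 4 of 6 negative, none of the 6 called and 11.7% of the tested miRNAs called (0 of 6 and 29.9% at an unadjusted p under 0.05). edgeR and DESeq2 called 0 of the 6 as well, beside 9.52% and 5.73% of all miRNAs they tested. At an unadjusted p under 0.05 edgeR had 3 of the 6 and 94 of all 378, and DESeq2 had 1 of the 6 and 103 of all 838. The signs depended on the tool and scaling: 6 of 6 members were negative in edgeR (55.3% of all miRNAs), 5 of 6 in DESeq2 (54.8%) and 1 of 6 in limma with library totals alone (15.2%). With the diet of the titles, 0 of 6 and 0 of all 387 were called in limma (0 of 6 and 11 of 387 at an unadjusted p under 0.05). In bulk testis, fewer cells of a type and less of the miRNA per cell cannot be told apart.

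**Figure D2:**
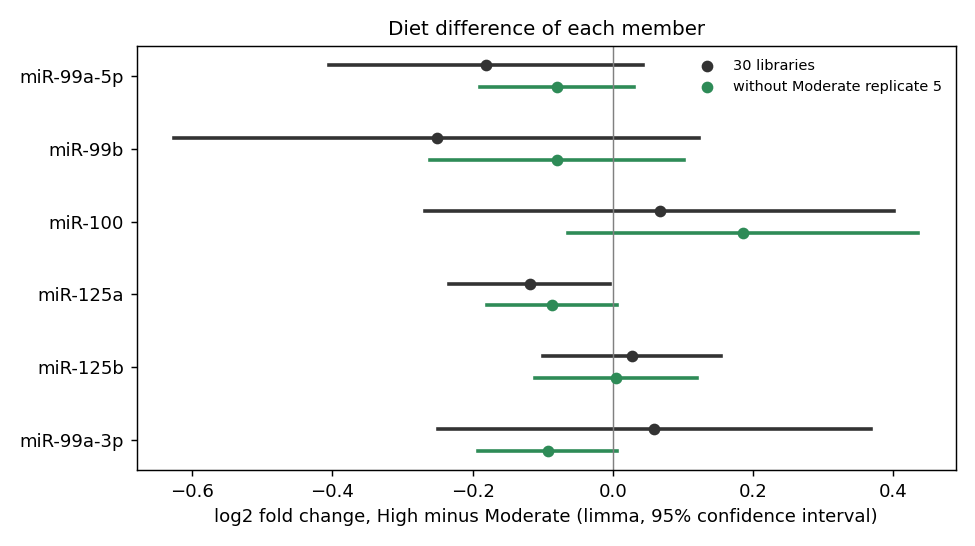
Log2 fold change of each member (High minus Moderate, x axis) with its 95% confidence interval in limma, in all 30 libraries and without Moderate replicate 5. The interval of miR-125a ends just under 0 in 30 libraries (-0.0038), and every other interval drawn includes 0; leaving out 1 library narrows the interval of miR-99b.

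The other genes of the clusters and the miR-10 relatives gave no call either. let-7c, let-7e, let-7a-5p, let-7a-3p, miR-10a and miR-10b formed the list of partners and relatives. In limma 0 of 6 rose and 0 fell, beside 4.91% of all 387 called. At an unadjusted p under 0.05 limma had 1 of 6, beside 21.2% of all 387. The median log2 fold change of the list was -0.09 (-0.03 without Moderate replicate 5). let-7c and let-7e, the let-7 genes beside miR-99a and miR-99b, both stood at -0.09 (limma adjusted p = 0.531 and 0.505). let-7 miRNAs restrain growth and stem cell programs and counter LIN28. miR-10a, whose sequence resembles that of miR-100, stood at -0.61 (SE 0.24, adjusted p = 0.112) and at -0.48 (adjusted p = 0.124) without Moderate replicate 5. Of the marker lists, that of meiotic and later germ cells had 2 of 3 members higher under High, beside 9 of all 387 higher. On the log2 scale miR-34c was higher by 0.96 (limma adjusted p = 0.0260) and miR-34b by 0.73 (adjusted p = 0.0313). The other member, miR-449a, stood at 0.02 (limma adjusted p = 0.949). Both calls were lost without High replicate 5 (adjusted p = 0.0520 for each), with library totals alone (0.147 and 0.0971), with no filter (0.0619 and 0.0748), in the lower depth range (0.0666 for each), in the deeper libraries (0.656 and 0.771), in the 12 libraries of agreeing labels (0.155 for each) and with the diet of the titles (0.981 for each). That of miR-34b was also lost without High replicate 4 (0.0508), High replicate 10 (0.0526), Moderate replicate 6 (0.0586), Moderate replicate 8 (0.0563) or Moderate replicate 13 (0.0532), and in edgeR (0.0532). The summed level of the list lay between 89.3 and 265 under High and between 21.9 (Moderate replicate 5) and 185 under Moderate. Its part in the values of the 6 miRNAs was not tested. Summed levels of the 4 fibroblast miRNAs lay between 4666 and 5751 under High and between 2620 (Moderate replicate 5) and 6130 under Moderate. Those of the 4 smooth muscle and endothelial miRNAs lay between 92196 and 152133 under High and between 95412 and 193170 under Moderate. Neither list had a member called (0 of 4 each, beside 4.91% of all 387), and their part was not tested either.

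Ratios of 2 miRNAs of the same library do not depend on the scaling factor, so paralogs were also compared as log2 ratios. Of 10 pairs, none passed an adjusted p of 0.05 over the pairs (permutation test with 100000 resamples, two-sided, 15 against 15), and 3 had an unadjusted p under 0.05. The balance of miR-100 to miR-99b came closest. It was -0.82 ± 0.26 under High and -1.14 ± 0.32 under Moderate (SD, n = 15 each), from -1.21 to -0.35 and from -1.88 to -0.57. The difference was 0.32 (SE 0.11, 95% confidence interval 0.10 to 0.54, permutation p = 0.00504, adjusted p = 0.0504), and 13 of 15 High libraries lay above the Moderate median. Without Moderate replicate 5 it was 0.27 (permutation p = 0.0109, adjusted p = 0.0687).

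miR-100 was thus higher relative to miR-99b in most High calves without passing the adjustment, and single calves moved it across the threshold. Leaving out 1 of 9 libraries brought the adjusted permutation p of miR-100 to miR-99b under 0.05: 0.0282 without High replicate 3, 0.0159 without High replicate 6, 0.0316 without High replicate 7, 0.0378 without High replicate 11, 0.0368 without High replicate 15, 0.0150 without Moderate replicate 3, 0.0324 without Moderate replicate 4, 0.0471 without Moderate replicate 7 and 0.0260 without Moderate replicate 12. In all 30 such fits the difference lay between 0.27 and 0.36. Within the 24 libraries of lower depth it was 0.36 (permutation p = 0.00882, adjusted p = 0.0441) and within the 6 deeper ones 0.16 (4 against 2, exact permutation p = 0.667). In the 12 libraries whose title and characteristic give the same diet it was 0.56 (6 against 6, exact permutation p = 0.0195, adjusted p = 0.108), with no High library below the Moderate median. The 24 libraries of lower depth and the 12 of agreeing labels both include Moderate replicate 5. Its ratio of -1.88 lay below those of the other 29 libraries (lowest -1.47), and neither subset was fitted without it. By the diet in the titles the difference was 0.13 (permutation p = 0.294).

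miR-99a-5p relative to miR-100 stood at -1.17 ± 0.27 under High and -0.92 ± 0.27 under Moderate (difference -0.25, SE 0.10, permutation p = 0.0186, adjusted p = 0.0621, 11 of 15 High libraries below the Moderate median). This pair passed without High replicate 6 (adjusted p = 0.0159) and without Moderate replicate 7 (0.0471). miR-99a-5p relative to miR-125b, which MIR125B-2 of its own cluster also gives, was -2.01 ± 0.10 under High and -1.80 ± 0.49 under Moderate (difference -0.21, permutation p = 0.0140, adjusted p = 0.0621, 13 of 15 High libraries below the Moderate median). Without Moderate replicate 5 the difference was -0.08 (permutation p = 0.0302, adjusted p = 0.101), since that library alone had a ratio near 0 (-0.06). This ratio passed without High replicate 3 (0.0282), High replicate 6 (0.0333), Moderate replicate 3 (0.0496), Moderate replicate 4 (0.0324) or Moderate replicate 7 (0.0471). miR-125b relative to miR-125a differed by 0.15 (95% confidence interval -0.02 to 0.31, permutation p = 0.0786, adjusted p = 0.196), with 11 of 15 High libraries above the Moderate median. miR-100 relative to miR-125b differed by 0.04 (adjusted p = 0.887) and, without Moderate replicate 5, by 0.18 (permutation p = 0.0471, adjusted p = 0.118). The other 5 pairs had differences from -0.24 to 0.16, with an adjusted p from 0.564 to 0.667.

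**Figure D3:**
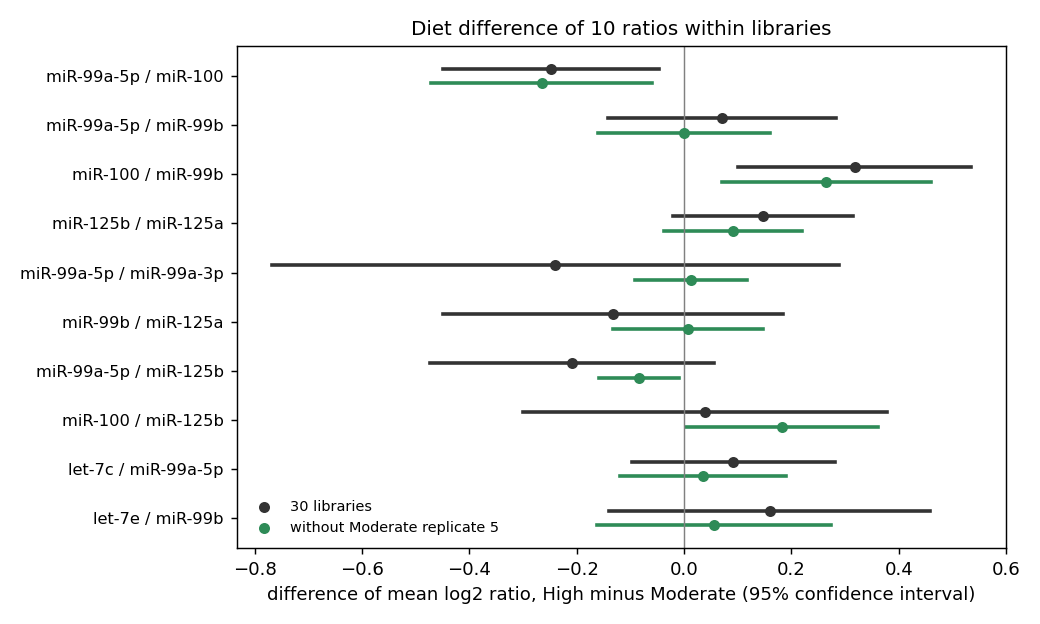
Difference between diets (High minus Moderate, x axis) in the mean log2 ratio of 10 pairs of miRNAs within libraries, with 95% confidence intervals, in all 30 libraries and without Moderate replicate 5. The interval of miR-100 to miR-99b runs from 0.10 to 0.54 and that of miR-99a-5p to miR-100 lies below 0, while the adjusted permutation p of each pair is above 0.05.

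From calf to calf, miR-125a and miR-125b each varied with the miR-99 or miR-100 miRNAs of their own clusters, while their relation to each other did not pass in the deposited TMM-scaled values and passed with library totals alone. In the 29 libraries without Moderate replicate 5, miR-125b had a Spearman rho of 0.83 with miR-100 (Pearson r 0.82, 0.76 without the 2 libraries farthest from the median of miR-100). With miR-99a-5p its rho was 0.73 (r 0.75, and 0.70 without 2 libraries). miR-125a had a rho of 0.72 with miR-99b (r 0.73, and 0.65 without 2 libraries). All 3 had a permutation p of at most 4e-05 and an adjusted p over the 10 pairs of at most 0.000133 for rho. The 2 miR-125 paralogs had a rho of 0.19 with each other (r 0.24, permutation p = 0.326, adjusted p = 0.362). Across clusters the rho was 0.42 for miR-125b and miR-99b, 0.38 for miR-125a and miR-99a-5p and 0.11 for miR-125a and miR-100. These pairs were not tested.

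Ranked among the 386 other tested miRNAs by rho over these 29 libraries, miR-100 stood first for miR-125b and miR-125b first for miR-100, miR-99b first for miR-125a and miR-125a first for miR-99b, and miR-125b first for miR-99a-5p. miR-125a ranked 85 for miR-125b. The median rho of a member with all tested miRNAs lay between -0.03 and 0.01. In all 30 libraries miR-125b and miR-100 had a rho of 0.65 (permutation p = 0.00013, adjusted p = 0.00065) and a Pearson r of 0.30 (permutation p = 0.109, adjusted p = 0.136), which Moderate replicate 5 lowered. For miR-125b and miR-99a-5p they were 0.56 (adjusted p = 0.00308) and -0.04 (adjusted p = 0.834). For miR-99b and miR-125a they were 0.75 (adjusted p = 0.0002) and 0.81 (adjusted p = 0.0001).

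The same 3 pairs had a rho of 0.80, 0.69 and 0.81 in the 23 libraries of lower depth without Moderate replicate 5 (adjusted permutation p of at most 0.00117). Subtracting the mean of each diet left 0.64, 0.56 and 0.75 in 30 libraries (adjusted p of at most 0.00324). With library totals alone in place of the TMM scaling, the rho of miR-125b and miR-125a was 0.57 (adjusted p = 0.0019, r 0.93, and 0.57 without 2 libraries) in 30 libraries, beside 0.88 for miR-100 and miR-125b, 0.91 for miR-99a-5p and miR-125b and 0.56 for miR-99b and miR-125a. There the Pearson r of miR-99b and miR-125a was 0.08, and -0.05 without 2 libraries. Whether the miR-125 paralogs varied together thus depended on the scaling. The points share a normalization over all miRNAs, and over the 29 libraries the rho of the 6 members with depth ran from -0.45 to -0.18 and with the miR-10b share from -0.45 to 0.15.

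Members with the miR-99 seed also varied together: rho was 0.53 for miR-99a-5p and miR-100, 0.47 for miR-99a-5p and miR-99b and 0.56 for miR-100 and miR-99b over the 29 libraries (adjusted permutation p of 0.0074, 0.0150 and 0.00467), with a Pearson r of 0.57, 0.56 and 0.61. In the 23 libraries of lower depth the rho of these pairs did not pass (0.47, 0.38 and 0.43, adjusted permutation p = 0.0507, 0.106 and 0.0668). Their Pearson r did (0.54, 0.52 and 0.45, adjusted permutation p = 0.0163, 0.0199 and 0.0430). It was 0.39, 0.29 and 0.33 without the 2 libraries farthest from the median. The arms miR-99a-5p and miR-99a-3p had a rho of 0.49 (permutation p = 0.00763, adjusted p = 0.0127) and an r of 0.53 in 29 libraries. In 30 libraries the rho was 0.35 (adjusted p = 0.0879) and the r -0.78 (permutation p = 0.0336, adjusted p = 0.0480), which rested on Moderate replicate 5, since r was 0.49 without the 2 libraries farthest from the median of miR-99a-5p. For the pairs with a let-7 neighbour the result depended on the measure, the scaling and Moderate replicate 5. Over 29 libraries the rho of let-7c with miR-99a-5p was 0.25 (permutation p = 0.186, adjusted p = 0.232, r 0.24). That of let-7e with miR-99b was -0.11 (permutation p = 0.581, adjusted p = 0.581, r -0.18). In 30 libraries the rho was 0.32 (adjusted p = 0.0992) and 0.0011 (adjusted p = 0.996), while the Pearson r was 0.61 (permutation p = 0.00364, adjusted p = 0.00728) and 0.77 (permutation p = 0.0279, adjusted p = 0.0466). Both r values rested on the outermost libraries, being 0.20 and -0.13 without the 2 farthest from the median. With library totals alone the rho of let-7c with miR-99a-5p was 0.58 (adjusted p = 0.0019) and that of let-7e with miR-99b 0.20 (adjusted p = 0.293).

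**Figure D4:**
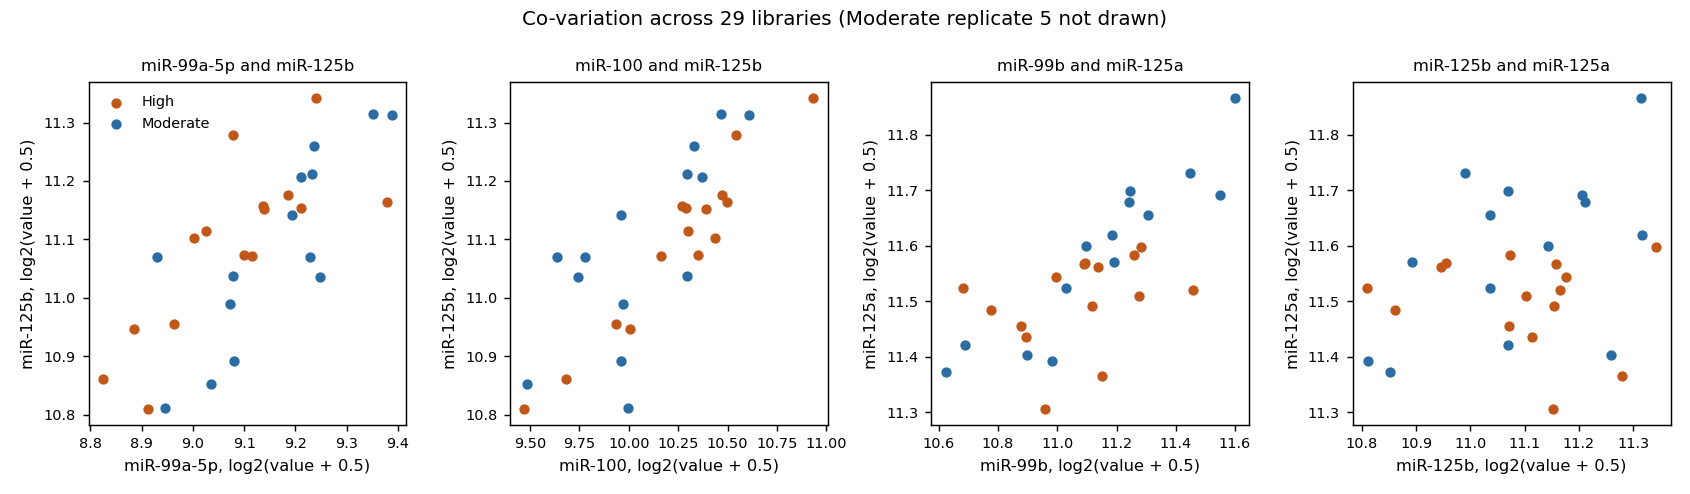
Levels of 4 pairs of members, each on a log2(value + 0.5) scale, in 29 libraries coloured by diet; a point is 1 calf and Moderate replicate 5 is not drawn. miR-125b climbs with miR-99a-5p and miR-100 and miR-125a with miR-99b (rho 0.73, 0.83 and 0.72), while the cloud of miR-125b against miR-125a has no clear slope (rho 0.19).

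Outside the 6, the tested miRNAs with the pattern most like each member over the 30 libraries were named by their Spearman rho, as a description. For miR-99a-5p they were miR-11971 (0.63), miR-1271 (0.57) and miR-409a (0.56). For miR-99b they were miR-409a (0.71), miR-1271 (0.60) and miR-502a (0.58), and for miR-100 miR-146b (0.67), miR-1271 (0.66) and miR-502a (0.62). miR-1271 was thus near all 3 miRNAs of the miR-99 seed. For miR-125a they were miR-11971 (0.58), miR-1468 (0.56) and miR-2284t-3p (0.53), for miR-125b miR-128 (0.56), miR-499 (0.53) and miR-34c (0.49), and for miR-99a-3p miR-152 (0.71), miR-26b (0.67) and miR-181c (0.61). miR-99a-3p thus shared none of these 3 with miR-99a-5p, the other arm of its hairpin. The arms themselves were near each other over the 29 libraries. Among 386 other tested miRNAs, miR-99a-3p ranked 7 for miR-99a-5p and miR-99a-5p ranked 9 for miR-99a-3p. Without Moderate replicate 5 all 3 were replaced for miR-125b, by miR-204 (0.58), miR-153 (0.52) and miR-211 (0.52), and for miR-125a, by miR-199a-5p (0.62), miR-376c (0.56) and miR-200b (0.56). Of the other members, miR-99a-5p kept all 3, and miR-99a-3p, miR-99b and miR-100 each kept 2. Here miR-497 (0.65) was now first for miR-100, let-7c (0.61) was added for miR-99a-3p and miR-2285br (0.54) for miR-99b. The levels of miR-2284t-3p, miR-376c, miR-200b and miR-2285br were low, with means by diet from 0.916 to 1.75. A floor of 3 reads was worth 0.138 to 1.43 units, so their rho values rest on few reads.

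Moderate replicate 5 stood apart in the deposited values of all 6 members, in directions that depended on the scaling. In TMM-scaled CPM its miR-99b was 6.07 times the mean of the other 29 libraries, its miR-100 3.14 times, its miR-99a-5p 2.93 times and its miR-125a 1.43 times, while miR-125b was at 0.779 and miR-99a-3p at 0.206 of that mean. All 6 of these values lay outside the range of the other 29. As shares of all reads, the direction turned for miR-99a-5p (0.0387%, others 0.0450% to 0.0722%) and miR-125a (0.102%, others 0.238% to 0.391%), which were below all other libraries. miR-100 (0.0874%, others 0.0643% to 0.225%) and miR-99b (0.322%, others 0.142% to 0.355%) lay inside the range of the others by that measure. miR-125b (0.0403%, others 0.166% to 0.305%) and miR-99a-3p (0.000338%, others 0.00561% to 0.00917%) were below it by both measures. The ratios within the library do not depend on the scaling. The log2 ratio of miR-99a-5p to miR-99a-3p was 6.79 in it and 2.64 to 3.26 in the other 29. That of miR-99a-5p to miR-125b was -0.06 against -2.20 to -1.79, that of miR-99b to miR-125a 1.66 against -0.84 to -0.06, and that of miR-125b to miR-125a -1.33 against -0.74 to -0.09.

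The miRNAs of the miR-99 seed were thus high relative to those of the miR-125 seed and to miR-99a-3p in this calf. In TMM-scaled CPM let-7a-5p was at 1.57 times the mean of the others, let-7c at 1.60 times and let-7e at 2.04 times, while let-7a-3p was at 0.291 of it. miR-10a and miR-10b were at 3.83 and 8.65 times. As shares of all reads, let-7a-5p (0.573%, others 1.34% to 1.99%), let-7c (0.0645%, others 0.128% to 0.245%) and let-7e (0.0419%, others 0.0751% to 0.113%) lay below all other libraries. So did let-7a-3p (0.000388%, others 0.00439% to 0.00737%). By that measure miR-10a (0.127%, others 0.0773% to 0.577%) lay inside the range and miR-10b (84.8%, others 37.0% to 49.0%) above it. miR-99a-3p rested on 30 reads in this library, against 421 to 1439 in the others. The cause was not tested.

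**Figure D5:**
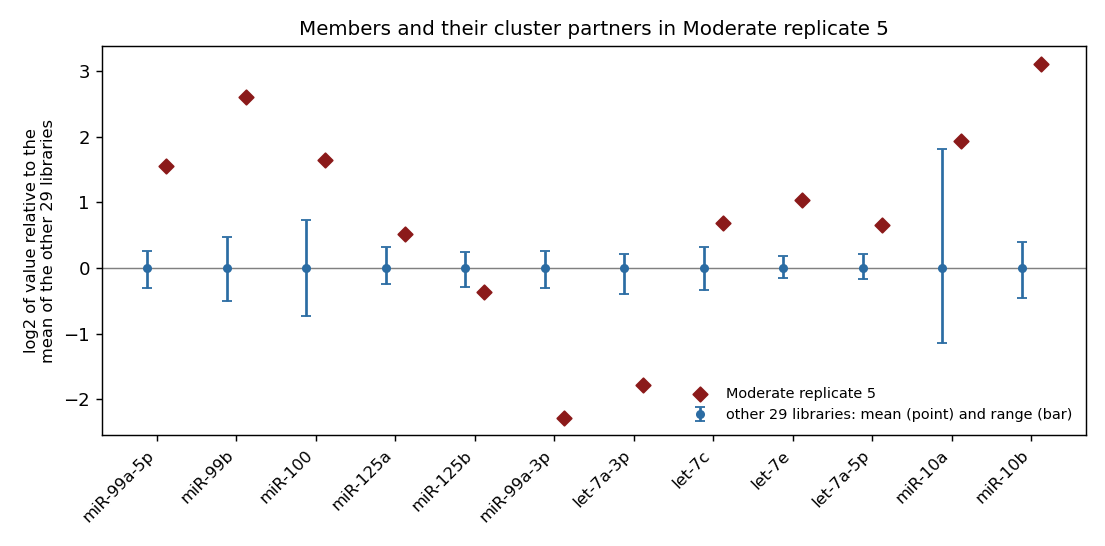
TMM-scaled CPM in Moderate replicate 5 (diamonds) and in the other 29 libraries (points: mean; bars: lowest to highest) for the 6 members, 4 let-7 miRNAs and miR-10a and miR-10b, as log2 relative to the mean of the other 29. The miR-99 seed, miR-125a, let-7c, let-7e, let-7a-5p and the miR-10 miRNAs lie above the bars, and miR-125b, miR-99a-3p and let-7a-3p below them.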

How the data were processed

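Small RNA libraries of 30 calf testes were made with a TruSeq small RNA kit, per the labels' protocols. FastQC 0.11.8, cutadapt 2.6, R 3.4 and edgeR 3.5 are named in the submitters' processing notes, whereas the aligner and build were not given in the sources used here. One table of normalized signal per miRNA was deposited by the authors. Its values equal TMM-scaled CPM: 95.3% of 18379 values above 0 were whole reads within 0.02 read, and library sizes recomputed by TMM matched to within 0.000218 in natural log. A floor of 3 reads was worth 0.138 to 1.43 units, and intervals from reads would cover counting error only.

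Libraries were grouped by the diet characteristic. limma 3.58.1 (R 4.3.3, mean-variance trend) was run on log2(value + 0.5) for the 387 miRNAs that reached 1 unit in 15 or more libraries, with Benjamini-Hochberg adjustment and a threshold of 0.05. Ratios and correlations used permutation tests with 100000 resamples (scipy 1.17.1), exact in subsets where stated. Alternatives were edgeR 4.0.16 and DESeq2 1.42.0 on recovered reads rounded to whole numbers, other pseudocounts (0.1 and 2), filters and scalings, depth ranges, the diet of the titles and leaving out each library. The scripts were tested on simulated data. Named were the 6 members, their partners and relatives, and for each member the 3 other tested miRNAs with the highest rho over 30 libraries; those named for 29 libraries and the germ cell miRNAs were added after their values were seen. The members and lists were chosen with earlier results of these data known.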

Additional observations from a re-analysis of the deposited data

How the results depend on the processing

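No member passed in any of 45 alternatives to the diet test. The order of levels cannot depend on the scaling. With miR-99b and miR-125b in either order, it held in all 29 libraries without Moderate replicate 5. The pairs that passed by rho, 6 in the main setting, changed with the setting. With library totals alone, miR-125b with miR-125a, the arms of miR-99a and let-7c with miR-99a-5p passed as well. In the lower depth range without Moderate replicate 5, the arms passed and the 3 pairs of the miR-99 seed did not. Signs near 0 did turn. With library totals alone, which moved the median of all miRNAs from 0.03 to 0.21 (log2), miR-99a-5p stood at 0.0314 and miR-125a at 0.0936. miR-99a-3p stood at -0.0326 in edgeR, -0.0181 in DESeq2, -0.0928 to 0.0855 when 1 library was left out (the lowest without Moderate replicate 5), -0.0220 with library totals without that library and -0.0774 in the deeper libraries, where miR-99b stood at 0.17. miR-100 stood at -0.10 in edgeR, -0.0766 in DESeq2 and -0.0632 by the titles, and miR-125b at -0.0037 in edgeR. Of the 10 ratios, 2 passed in the lower depth range, which includes Moderate replicate 5, and 0 to 3 when 1 library was left out. Leaving out 1 library gave differences from -0.00042 to 0.10 for miR-99a-5p to miR-99b, from -0.28 to 0.0131 for miR-99a-5p to miR-99a-3p and from -0.16 to 0.0075 for miR-99b to miR-125a, each turning sign without Moderate replicate 5, and in the deeper libraries they were -0.18, 0.0637 and 0.17. There let-7c to miR-99a-5p was -0.20 and let-7e to miR-99b -0.31. miR-100 to miR-125b ran from -0.00063 without Moderate replicate 4 to 0.18 without Moderate replicate 5, and was -0.000800 in the lower depth range, -0.11 by the titles and -0.0827 where both labels agree. The rho of let-7e and miR-99b was -0.11 without Moderate replicate 5 and -0.12 in the lower depth range without it. The cause was not tested. Counts called over all miRNAs ranged from 0 with library totals, no filter, the titles or the 12 libraries of agreeing labels (61, 104, 11 and 43 at an unadjusted p under 0.05) to 48 in DESeq2. Leaving out 1 library took the 19 calls to 0 without High replicate 5 (75 at an unadjusted p under 0.05), to 45 without Moderate replicate 5, and to 9 to 12 without High replicate 1, 4, 8, 10, 13 or 14 or Moderate replicate 1, 2, 4, 6, 8 or 13. The deeper range holds 4 High and 2 Moderate libraries, and limits what it can show. The deeper range, agreeing labels for ratios, and the settings that combine Moderate replicate 5 with another choice were chosen after seeing the data. No paired analysis was possible because the replicate numbers follow the order of accessions and pair no calves.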
